A study of Mus musculus with 18 samples.

Results

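The response shared by 2 laundry detergents was measured in mouse skin by pooling every library of detergent-treated skin and comparing it with control skin. The pool held the 12 libraries labelled detergent A or detergent B, 6 of each, out of 18 libraries in the series, and the comparison group was the 6 libraries labelled PBS, the phosphate-buffered saline vehicle. All 3 groups were skin of C57BL/6 mice of 8 to 12 weeks with no transgene or other agent named. The labels give neither the dose, the duration, the body site nor the composition of either detergent, and they do not state whether the libraries are separate animals. The p-values therefore rest on the spread among libraries, which may be technical. The libraries held 17312623 to 29599018 counts each, with overlapping ranges in PBS and treated skin. All 16836 genes that passed a filter on low counts were tested. Defining keratinocyte genes were abundant in every library: Krt14, a basal layer keratin, was between 3447 and 12135 CPM (counts scaled to library size by TMM), and Krt10, a suprabasal keratin, between 4053 and 16879 CPM.

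The outermost skin layer is made by keratinocytes that stop dividing, move upward and die in a programmed way called cornification. Proteins such as involucrin, loricrin, the small proline-rich and the late cornified envelope proteins are cross-linked under the plasma membrane. Ceramides, cholesterol and fatty acids fill the space between the dead cells, and secreted proteases and their inhibitors set how fast these cells are shed. The IL-36 cytokines, a branch of the interleukin-1 family, are made mainly by these epithelial cells.

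Genes of the upper epidermis were prominent among those that changed. Of 16836 genes, 640 rose (3.8%) and 524 fell (3.11%) in skin treated with either detergent, 6.91% in all. The threshold here and below was a Benjamini-Hochberg adjusted p of 0.05 in the quasi-likelihood test of edgeR. The changes were mostly moderate, with a median fold of 1.4 among genes that rose and 0.708 among genes that fell. At least 2-fold differences were seen for 95 genes that rose and 70 that fell, and at least 4-fold ones for 22 and 27. In 812 of the 1164 genes all 12 treated libraries differed from the mean log2 CPM of PBS in the called direction, and in none did fewer than 10. The genes were called on these same libraries, which favours such agreement, and its share over all genes tested was not counted. Groups that did not overlap at all, 12 libraries against 6, were seen for 24 genes above PBS (0.143% of genes tested), all of them called, and 49 below (0.291%), 44 of them called, or 0.434% in all. Because whole skin was sequenced, a change in the number of cells of a type and a change in RNA per cell cannot be told apart.

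The same fit, taken one detergent at a time, called 9 genes higher and 23 lower for detergent A (0.0535% and 0.137% of genes tested, 0.19% in all). For detergent B it called 332 higher and 182 lower (1.97% and 1.08%, 3.05% in all). Both single comparisons use the same 6 PBS libraries as the pooled one. Of the pooled calls, 672 passed in neither single comparison, 323 of them higher and 349 lower. In the upper-epidermis lists described below, detergent B alone called 14 cornified envelope, 15 ceramide and barrier lipid, 11 protease and inhibitor, 6 stefin A, 5 late cornified envelope, 3 small proline-rich and 6 IL-1 family genes higher, against 17, 24, 17, 6, 7, 8 and 9 in the pool. Detergent A alone called 1 ceramide and barrier lipid gene and 1 IL-1 family gene higher and 0 in the other 5 lists. Conversely, 29 genes passed in a single comparison and not in the pool. The median standard error of a log2 fold change over all genes was 0.129 for the pool against 0.149 for each detergent alone.

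Several libraries weighed on the size of this call. Calls fell to 93, 212, 233, 376 and 767 when PBS replicate 2, 3, 5, 1 or 4 was left out, and to 562, 619, 621, 696 and 749 without detergent A replicate 5, detergent A replicate 3, detergent B replicate 2, detergent B replicate 5 and detergent B replicate 6. They rose to 2595 when PBS replicate 6 was left out and to 2011 without detergent A replicate 2. In each of the 18 fits with 1 library left out all 1164 genes kept their sign. These genes were called on the same libraries, so kept signs are no independent check, here or in the covariate fit below. The markers of the hair shaft moved with the groups too: their score, the mean log2 CPM of 25 genes, differed by -2.40 between treated and PBS skin. Relative to the PBS mean it ran from -2.51 to 1.83 in PBS libraries and from -4.35 to 0.44 in treated ones. PBS replicate 6 had the lowest score of its group. With that score as a covariate, edgeR called 0 genes (1798 at an unadjusted p under 0.05, smallest adjusted p 0.06745), DESeq2 called 59 higher and 135 lower, and limma voom with quality weights 45 higher and 215 lower. In that edgeR fit 1156 of the 1164 genes kept their sign, 713 of them with an unadjusted p under 0.05, and their median absolute log2 fold change was 0.28 in place of 0.49. The score was measured in the same libraries and differed between the groups. These fits therefore cannot tell hair follicle content apart from detergent treatment, and its part in the pooled response was not tested.

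**Figure D1:**
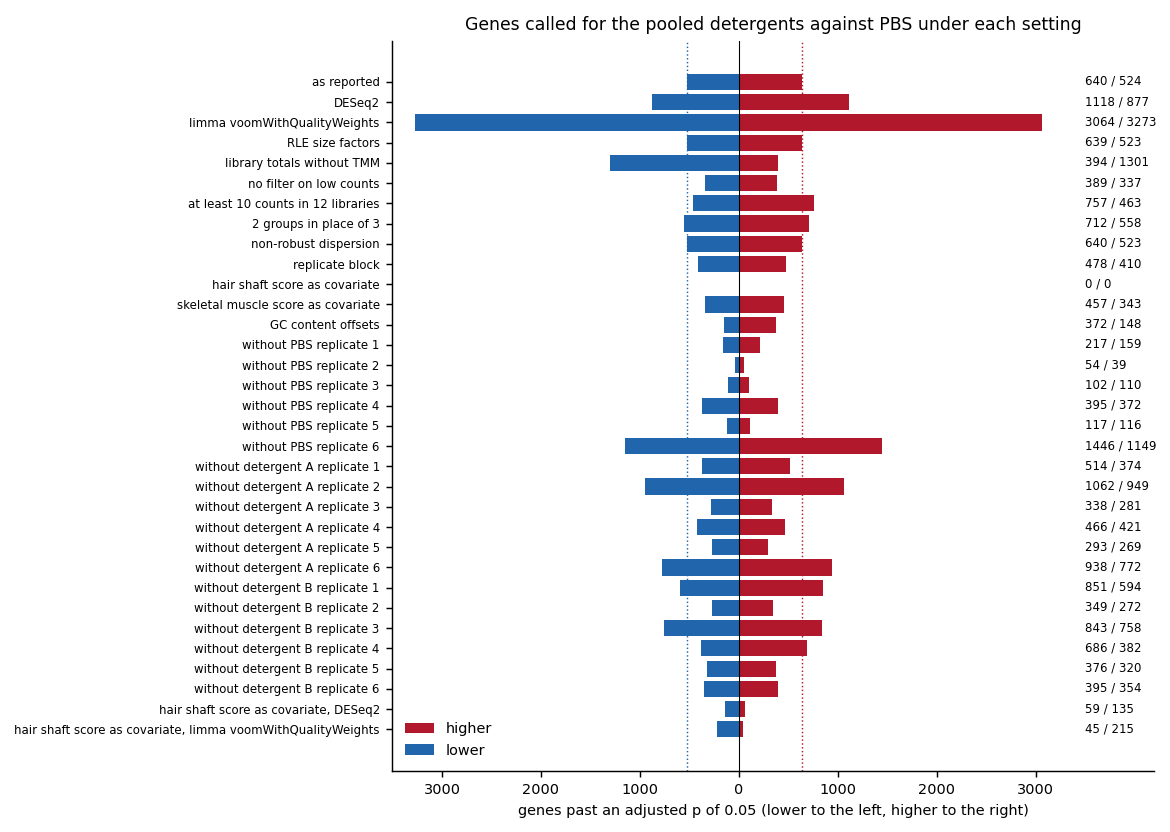
Number of genes past an adjusted p of 0.05 for the 12 detergent libraries against the 6 PBS libraries under each setting, lower genes drawn to the left and higher genes to the right, with both counts printed at the right edge and dotted lines at the reported 640 and 524. With 1 library left out the count lay between 93 (PBS replicate 2) and 2595 (PBS replicate 6), and it was 0 in edgeR with the hair shaft score as a covariate.

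Many cornified envelope genes rose. Of 37 measured, 17 rose and 1 fell, with a list median log2 fold change of 0.59 against -0.01 for all genes tested. Over all genes tested 3.8% rose and 3.11% fell, the shares beside which this and every later list count is to be read. Ivl, which encodes involucrin (chr3:92570902-92573735, GRCm38), was at 182, 223 and 288 CPM in PBS libraries (lowest, median and highest) and at 268, 461 and 611 CPM in treated ones. It rose 1.94-fold (log2 0.95 ± 0.16 SE, edgeR adjusted p = 0.00887), with 11 of 12 treated libraries above every PBS library. Casp14, a caspase active in cornification, rose 2.09-fold, from 367, 450 and 505 CPM to 431, 1019 and 1469 CPM. Detergent A replicate 4 lay within the PBS range and the other 11 treated libraries lay above it. Krt1, the keratin of the spinous layer, rose 2.36-fold and Flg, which encodes profilaggrin, rose 2.0-fold, each from a wider range in PBS. Asprv1, a protease that cuts profilaggrin, rose 1.95-fold, and Calm4, a calmodulin-like protein of differentiating keratinocytes, rose 2.31-fold. Rptn and Hrnr, which encode the envelope proteins repetin and hornerin, had log2 fold changes of 1.95 ± 0.43 and 1.15 ± 0.23 (SE). The exception in direction was Tchhl1, a trichohyalin-like gene, which fell by 1.95 ± 0.55 (SE) on the log2 scale.

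The envelope genes did not move evenly. Lor, which encodes loricrin, was at 530, 592 and 1218 CPM in PBS libraries and 213, 761 and 1330.1 CPM in treated ones, a 1.08-fold difference (log2 0.11 ± 0.26 SE, edgeR adjusted p = 0.834). Krt10, the usual partner of Krt1, was 1.62-fold apart with an adjusted p of 0.0768, and the cross-linking enzymes Tgm1 and Tgm3 had log2 fold changes of 0.42 ± 0.15 and 0.87 ± 0.27 (SE) that did not pass. The basal layer keratins Krt5 and Krt14 were 1.27-fold and 1.60-fold apart, and the wound keratins Krt6a and Krt16 were 2.20-fold and 2.91-fold apart, with adjusted p-values from 0.0936 to 0.206. For Krt16 the treated libraries ran from 172 to 4840.2 CPM, to both sides of the PBS range of 309 to 1439 CPM.

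The small proline-rich and late cornified envelope families lie close together on chromosome 3 and held 7 of the 14 largest increases among the named genes. Of 15 small proline-rich genes 8 rose, with a list median log2 fold change of 2.05, and 7 of 21 late cornified envelope genes rose, with a median of 0.57; none fell. Sprr2d was at 4.94, 10.3 and 12.9 CPM in PBS libraries and 7.97, 47.9 and 122 CPM in treated ones, a 5.19-fold rise. Only 10 of the 12 treated libraries cleared the PBS range, and the treated values spread over more than a factor of 10. Sprr2f, Sprr2e and Sprr2g rose 6.17-fold, 5.18-fold and 4.15-fold, and Lce3a, Lce3e, Lce3f, Lce3d and Lce3c rose 5.39-fold, 4.82-fold, 4.67-fold, 4.46-fold and 3.14-fold. In the window chr3:92000001-93000000, 17 of 47 tested genes rose and none fell. Genes of these families resemble each other closely and how reads matching several places were counted is not given in the sources used here, so the values of single members are uncertain.

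**Figure D2:**
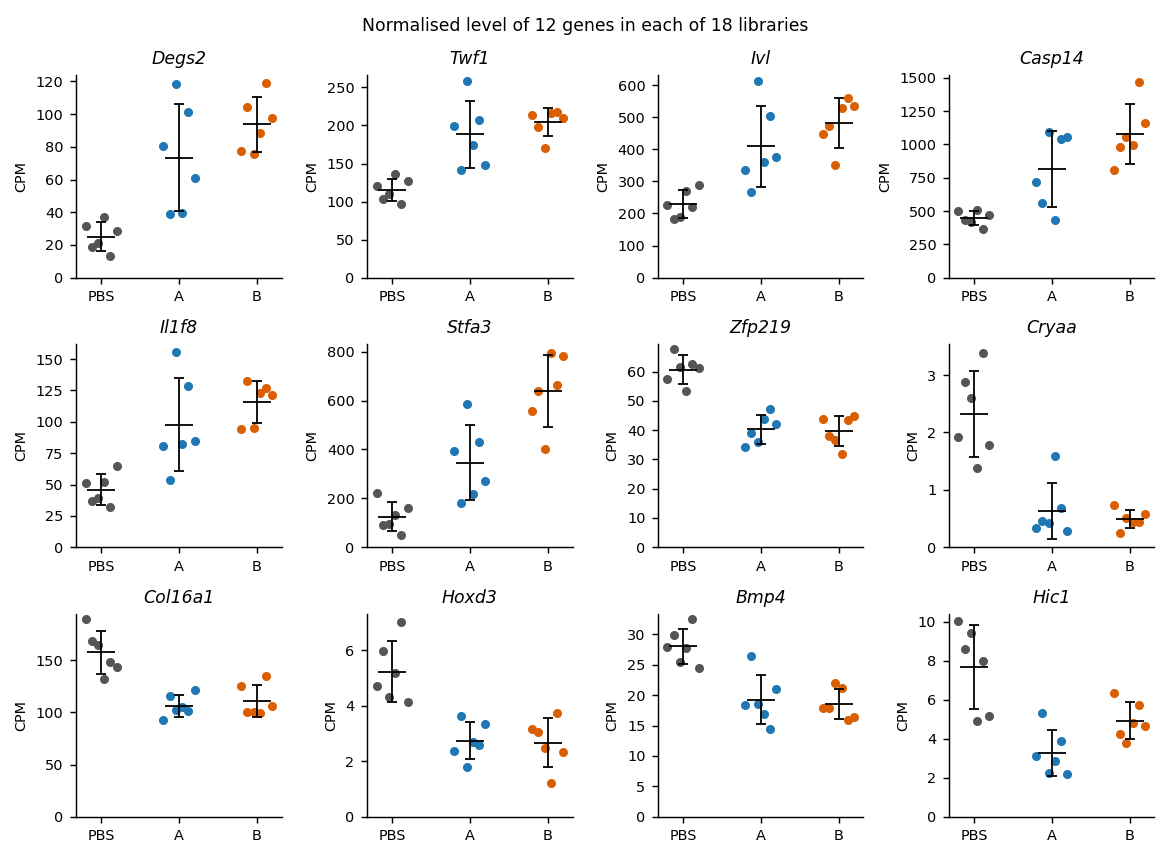
Normalised level in CPM of 12 genes in each of the 18 libraries, 6 per group, with each point 1 library and bars for the mean ± SD. All 12 treated libraries lay above every PBS library for Degs2 and Twf1 and below every PBS library for Zfp219 and Hoxd3.

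Promoter sequence is shown for 5 genes so that the starts of 4 genes that rose can be set beside that of Lor, which did not pass; they were chosen after their values were seen. Each line gives the 250 bases before the RefSeq start on GRCm38.p6, 5′ to 3′ on the gene's own strand: Ivl at chr3:92573736-92573985 (minus strand), Sprr2d at chr3:92338890-92339139 (plus), Il1f8 at chr2:24152922-24153171 (plus), Degs2 at chr12:108702307-108702556 (minus) and Lor at chr3:92083143-92083392 (minus). Capitals mark TGANTCA, the core recognised by AP-1 factors, and GGGCGG, the core of the GC box bound by Sp factors, each searched on both strands; the 2 motifs cannot overlap.
Ivl: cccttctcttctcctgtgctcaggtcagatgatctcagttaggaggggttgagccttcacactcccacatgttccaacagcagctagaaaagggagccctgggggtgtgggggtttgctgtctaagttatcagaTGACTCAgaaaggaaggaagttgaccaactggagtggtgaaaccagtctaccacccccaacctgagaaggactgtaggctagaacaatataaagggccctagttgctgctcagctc
Sprr2d: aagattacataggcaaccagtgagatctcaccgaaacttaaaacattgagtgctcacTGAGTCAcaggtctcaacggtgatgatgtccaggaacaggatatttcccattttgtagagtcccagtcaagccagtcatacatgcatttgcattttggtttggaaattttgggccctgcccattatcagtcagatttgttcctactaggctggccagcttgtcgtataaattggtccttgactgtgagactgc
Il1f8: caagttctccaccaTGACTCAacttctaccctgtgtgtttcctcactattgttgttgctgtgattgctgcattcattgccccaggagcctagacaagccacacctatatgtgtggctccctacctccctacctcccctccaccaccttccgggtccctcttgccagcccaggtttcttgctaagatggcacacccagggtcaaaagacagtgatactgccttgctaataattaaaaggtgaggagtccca
Degs2: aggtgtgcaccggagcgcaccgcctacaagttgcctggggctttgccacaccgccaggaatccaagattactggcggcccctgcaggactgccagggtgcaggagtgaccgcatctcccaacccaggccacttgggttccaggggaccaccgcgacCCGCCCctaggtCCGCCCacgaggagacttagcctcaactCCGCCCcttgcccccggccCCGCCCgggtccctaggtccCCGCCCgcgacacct
Lor: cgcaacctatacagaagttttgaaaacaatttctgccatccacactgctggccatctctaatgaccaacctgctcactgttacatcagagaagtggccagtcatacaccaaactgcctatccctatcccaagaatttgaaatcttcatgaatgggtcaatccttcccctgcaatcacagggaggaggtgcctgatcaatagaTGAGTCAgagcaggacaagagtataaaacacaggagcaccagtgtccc
Ivl, Sprr2d and Il1f8 each held 1 TGANTCA match, beginning 116, 193 and 236 bases before the start. Lor, which did not pass, held 1 as well, 48 bases before its start, while Degs2, among the strongest increases, held none and had 5 GGGCGG matches in a window of 69.2% GC. Of 11056 windows of tested genes, 543 (4.91%) held TGANTCA and 57.2% held GGGCGG. A window was matched for 821 of the 1163 called genes with a symbol, and no share over the called genes was taken.

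Genes for the barrier lipids rose widely. Of 37 genes for ceramide and barrier lipid synthesis, 24 rose and none fell, with a median log2 fold change of 0.57. Degs2, a sphingolipid hydroxylase that makes phytoceramides (chr12:108678711-108702315, GRCm38), was at 13.1, 25.0 and 36.9 CPM in PBS libraries and 39.1, 84.5 and 119 CPM in treated ones, so that the groups did not overlap. It rose 3.30-fold (log2 1.72 ± 0.25 SE, edgeR adjusted p = 0.00884), 2.91-fold with detergent A and 3.73-fold with detergent B against the same PBS libraries. Genes that rose ranged from early steps of sphingolipid synthesis to the assembly of the lipid envelope. Sptlc1, Sptlc2 and Sptlc3, subunits of the enzyme that begins sphingolipid synthesis, had log2 fold changes of 0.52, 0.33 and 0.61. Cers3 and Elovl4, which make ceramides with very long acyl chains, had 0.82 and 0.57, and Ugcg, which adds glucose to ceramide, rose 1.5-fold. Abca12, the transporter that loads lamellar granules, had 0.79, and Alox12b, Sdr9c7 and Pnpla1, which act on the omega-hydroxyceramides of the lipid envelope, had 0.65, 0.90 and 0.63. Smpd1, which releases ceramides from sphingomyelin, had 0.66. Aloxe3, the partner of Alox12b, did not pass (log2 0.37 ± 0.15 SE).

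Other lipid lists held fewer calls. In cholesterol synthesis 5 of 25 genes rose, among them Ebp (1.51-fold) and Msmo1 (1.46-fold). In fatty acid synthesis 1 of 16 rose, Scd1 at 1.38-fold, a share of 6.25% that is near the 3.8% of all genes tested. Phospholipase genes were led by Pla2g4d, a cytosolic phospholipase of differentiating keratinocytes, which was at 0.231, 0.623 and 2.69 CPM in PBS and 1.78, 8.86 and 23.0 CPM in treated libraries, an 8.68-fold rise and the largest among the named genes. Its neighbours Pla2g4e and Pla2g4f rose 1.89-fold and 1.47-fold, and Pla2g2f, a secreted phospholipase of the upper epidermis, rose 1.42-fold. Ptgs2, which encodes cyclooxygenase-2, was 1.65-fold apart and did not pass (adjusted p = 0.31).

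Proteases and their inhibitors rose together. Of 30 genes measured, 17 rose and none fell, with a median log2 fold change of 0.63. The kallikreins, serine proteases that cut the links between dead cells, contributed Klk9 (2.22-fold), Klk8 (1.63-fold) and Klk5, Klk7, Klk11 and Klk13 (log2 0.69, 0.66, 0.59 and 1.12), and in chr7:43000001-44000000 6 of 23 genes rose and 1 fell. On the inhibitor side Spink7 rose 8.59-fold, from 0.602, 2.76 and 8.74 CPM to 6.76, 32.1 and 71.6 CPM, and Serpinb12 rose 2.94-fold. The cystatin-like inhibitors of the stefin A cluster on chromosome 16 gave 6 increases among 7 genes, with a median log2 fold change of 2.13. Stfa3 (chr16:36450537-36455392) was at 50.9, 113 and 222 CPM in PBS and 179, 493.5 and 794 CPM in treated libraries, a 3.75-fold rise in which 10 of 12 treated libraries cleared the PBS range. BC117090, BC100530, Stfa1 and Stfa2 rose 5.25-fold, 4.66-fold, 4.67-fold and 4.39-fold, and as near copies of each other they are uncertain singly. Csta1 is counted both here and in the envelope list, as Klk5 is in the protease and envelope lists.

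Several epithelial cytokine genes of the interleukin-1 family rose. Of 24 genes of the IL-1 and IL-36 family, 9 rose and none fell, with a median log2 fold change of 0.33, and 5 of 15 genes rose in the cluster at chr2:24000001-25000000. Il1f8, which encodes IL-36 beta (chr2:24153161-24160519), was at 31.8, 45.5 and 64.5 CPM in PBS and 54.0, 109 and 156 CPM in treated libraries, a 2.31-fold rise with 11 of 12 treated libraries above the PBS range. Il1f6 (IL-36 alpha) and Il1f9 (IL-36 gamma) rose 2.31-fold and 1.80-fold. The natural inhibitors rose as well: Il1f5, the IL-36 receptor antagonist, 1.88-fold, and Il1rn, the IL-1 receptor antagonist, by a log2 of 0.51 ± 0.13 (SE). The receptor Il1rl2 had a log2 fold change of 0.37, and Il1a and Il18 rose 1.47-fold and 1.75-fold. In the list of type 2 and epithelial cytokine genes 2 of 18 rose, Chil1 (1.80-fold) and Il13ra2, a decoy receptor for IL-13 (1.65-fold), and 1 fell, Crlf2, a chain of the TSLP receptor (0.605-fold). None of the 18 passed when PBS replicate 2, 3 or 5 or detergent A replicate 3 was left out.

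Genes of recruited inflammation gave no such count. None of 25 chemokine genes, 30 interferon response genes, 16 T cell, 19 macrophage and monocyte, 12 neutrophil, 12 mast cell or 20 dendritic and Langerhans cell genes passed by edgeR. Over all genes tested 6.91% passed, so 0 calls in lists this short do not show that these genes were unchanged. At an unadjusted p under 0.05 by edgeR, 1 chemokine gene was higher and 2 were lower. For T cell genes it was 2 higher and 1 lower, and 3 neutrophil genes were higher. A mast cell gene (1) and 5 dendritic and Langerhans cell genes were lower. The interferon list and the macrophage and monocyte list had 0. Over all genes tested, 4365 of 16836 had such a p. DESeq2 called 1 chemokine gene lower and 1 T cell and 1 neutrophil gene higher, and 0 in the other 4 lists. The summed level of the macrophage and monocyte markers was between 1007 and 1963 CPM in PBS and between 526.4 and 2551 CPM in treated libraries. For neutrophil markers it was 112 to 171 CPM and 116 to 449 CPM. Il1b was at 5.25, 7.56 and 11.7 CPM in PBS and 2.70, 6.71 and 59.9 CPM in treated libraries, and did not pass (adjusted p = 0.344). S100a8 and S100a9, which encode calprotectin, were 3.62-fold and 3.20-fold apart with treated libraries from 1.90 to 155 CPM and from 4.76 to 148 CPM, and did not pass (adjusted p = 0.132 and 0.124). The epithelial alarmins Il33 (2.01-fold, adjusted p = 0.138) and Tslp (1.07-fold, adjusted p = 0.886) did not pass either. Antimicrobial genes gave 6 increases of 18, among them Defb1 (1.90-fold), Defb6 (1.56-fold) and Wfdc12 (4.04-fold).

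**Figure D3:**
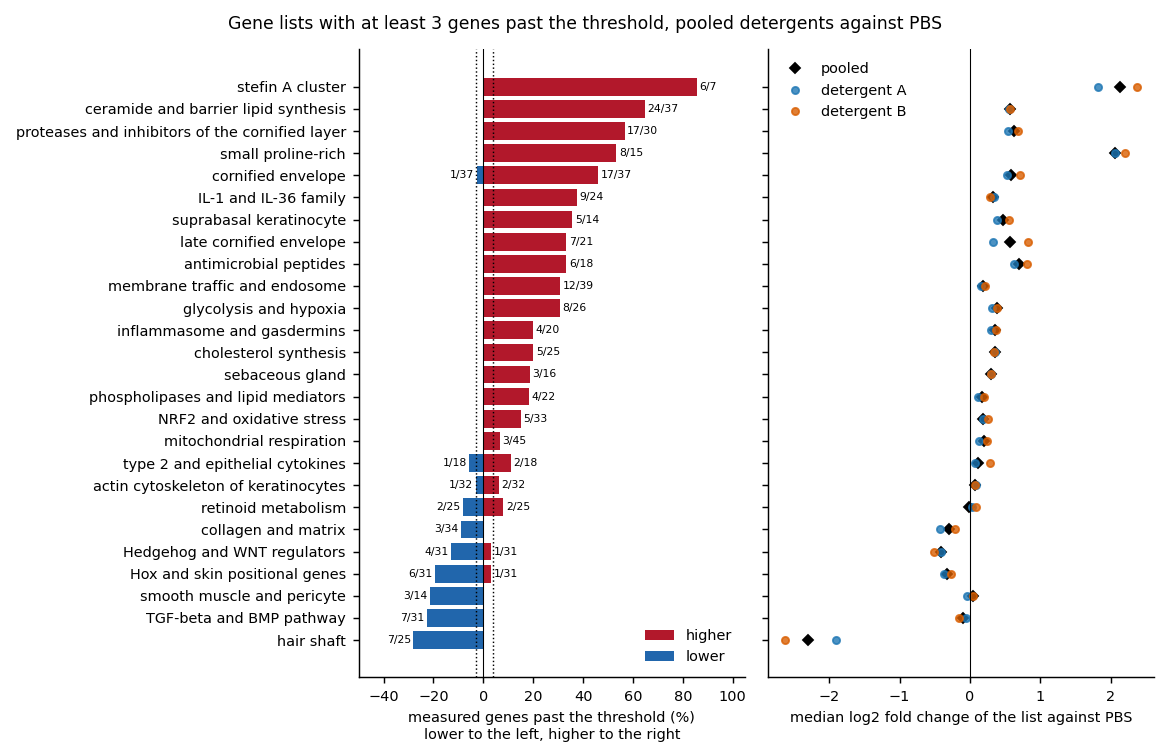
Left, share of measured genes of each list past the threshold, higher to the right and lower to the left with counts beside the bars and dotted lines at the shares over all genes (3.8% and 3.11%); right, the median log2 fold change of each list against PBS for the pool and for each detergent, which share the PBS libraries. The stefin A, ceramide and protease lists had the highest shares of genes that rose, and the hair shaft list the highest share that fell.

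Stress and metabolic genes changed in part. Of 33 genes of the NRF2 and oxidative stress list 5 rose, among them Gsta1, a glutathione transferase (2.63-fold), Glrx, a glutaredoxin (2.18-fold), and G6pdx, the entry enzyme of the pentose phosphate pathway (1.31-fold, 12 of 12 treated libraries above every PBS library); Nqo1 and Hmox1 did not pass. Of 26 glycolysis and hypoxia genes 8 rose, with Ldha at 1.36-fold and Tpi1 at 1.30-fold, while Hif1a did not pass. Of 39 genes of membrane traffic 12 rose, all modestly, such as Atp6v1a, a subunit of the proton pump of endosomes and lysosomes (1.35-fold). Twf1, which encodes an actin monomer-binding protein, had one of the smallest p-values of all: it was at 96.4, 115 and 136 CPM in PBS and 141, 203 and 259 CPM in treated libraries, with no overlap, a 1.70-fold rise. No gene of the proteasome (31), cell cycle (35), circadian (19), ribosomal protein (49) or aryl hydrocarbon (19) lists passed by edgeR, against 6.91% of all genes tested. DESeq2 called 7 proteasome, 8 ribosomal protein, 2 circadian and 2 aryl hydrocarbon genes higher, 1 circadian gene lower and 0 cell cycle genes. At an unadjusted p under 0.05 by edgeR, 22 proteasome, 21 ribosomal protein and 2 aryl hydrocarbon genes were higher and none lower. For circadian genes it was 2 higher and 2 lower, and 3 cell cycle genes were lower and none higher. Over all genes tested, 4365 of 16836 had such a p. Tight junction genes gave 2 decreases of 27 (7.41%, against 3.11% of all genes tested), Cldn3 (0.570-fold) and Magi1 (0.668-fold). Cldn1 and Ocln were 1.03-fold and 1.06-fold apart (edgeR adjusted p = 0.629 and 0.544), with the opposite sign when library totals were used without TMM.

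The genes that fell were of other kinds. Zfp219, a zinc finger transcription factor gene (chr14:52006077-52020733), had the smallest p of any decrease: 53.4, 61.5 and 67.7 CPM in PBS against 32.0, 40.7 and 47.2 CPM in treated libraries, with no overlap. It fell to 0.661-fold (log2 -0.60 ± 0.08 SE, edgeR adjusted p = 0.00474). Cryaa, a crystallin gene, was at 1.37, 2.26 and 3.38 CPM and 0.245, 0.451 and 1.58 CPM, a fall to 0.243-fold in which 11 of 12 treated libraries were below every PBS library. Of 31 genes of the TGF-beta and BMP pathway, 7 fell and none rose, among them the ligand Bmp4 (0.675-fold), the target Id3 (0.631-fold), the latency proteins Ltbp3 (0.614-fold) and Ltbp4 (log2 -0.49 ± 0.10 SE), Tgfb1 (log2 -0.36 ± 0.08 SE) and the inhibitor Smad6 (log2 -1.04 ± 0.23 SE). Of 31 Hox and positional genes, which hold the body-site identity of skin, 6 fell. Hoxd3 fell to 0.518-fold with no overlap, from 4.13, 4.94 and 7.03 CPM to 1.20, 2.65 and 3.74 CPM; Hoxb2, Hoxb3 and Hoxd4 fell to between 0.590-fold and 0.640-fold. Among Hedgehog and WNT genes 4 of 31 fell, including Wnt6 (0.443-fold) and the feedback target Axin2 (0.760-fold), and Wnt4 rose 1.37-fold. Of 34 collagen and matrix genes 3 fell (8.82%, against 3.11% of all genes tested), Col16a1 (0.689-fold), Col1a1 (0.548-fold) and Col6a2 (0.626-fold). Col3a1 was 0.895-fold apart and did not pass.

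The 14 largest decreases among the named genes were held by genes of the hair shaft and hair keratin-associated proteins. Of 25 hair shaft markers 7 fell and none rose by edgeR, with a median log2 fold change of -2.30, and of 20 keratin-associated protein genes 13 fell. For these 25 markers DESeq2 called 2 lower and 1 higher, and edgeR with a replicate block called 1 lower. Krtap1-3 was at 0.447, 1.59 and 9.38 CPM in PBS and 0, 0.0723 and 0.972 CPM in treated libraries, a log2 fold change of -3.64 ± 0.74 (SE), with its PBS mean of 2.57 CPM resting largely on PBS replicate 1. The summed hair shaft level was 72.2 to 1108 CPM in PBS and 35.8 to 601 CPM in treated libraries, so the groups overlapped. None of these 25 markers passed when PBS replicate 1, 2, 3 or 5, detergent A replicate 1, 3 or 5, or detergent B replicate 2, 4, 5 or 6 was left out, and 20 did without detergent A replicate 2. Krtap1-3, which is not among the 25, lost its call only without PBS replicate 1. With the hair shaft score as a covariate the sign turned for Krtap4-9, Krtap4-7, Krtap3-1, Krtap28-10 and Krtap16-1. Krtap4-7, Krtap3-1 and Krtap16-1 are part of that score, and all of these belong to the same gene family. The fit therefore takes out most of their own change, and the turned signs are no separate result. Near-identical members make single genes of this family uncertain as well.

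GC content moved with direction. The median GC content of the transcripts was 46.9% for genes that rose, 57.6% for genes that fell and 49.7% for all tested. Of 10 equal groups of genes ordered by GC content, 14.8% fell and 0.476% rose in the highest, and in the lowest 0.119% fell and 5% rose. The libraries differed in the same way. The GC tilt, the median log2 deviation of the highest group minus that of the lowest, was 0.163 ± 0.047 (SD, n = 6) in PBS, with a range of 0.093 to 0.215, and -0.074 ± 0.156 (SD, n = 12) in treated libraries, with a range of -0.320 to 0.131; 9 of 12 treated libraries lay below every PBS library. With an offset for GC content in each library, 372 genes rose and 148 fell (71.5% and 28.5% of calls, against 55% and 45%), and 309 of the 640 and 139 of the 524 genes were kept. In that fit 15 of 37 cornified envelope, 19 of 37 ceramide and barrier lipid, 14 of 30 protease, 6 of 7 stefin A and 6 of 24 IL-1 family genes rose. In the TGF-beta and BMP list 5 fell in that fit and in the Hox list 4 fell. Membrane traffic went from 12 that rose to 1 and the hair shaft list from 7 that fell to 0. Of the 14 largest decreases among the named genes, 6 were still called. How far GC content accounts for the calls was not tested further.

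**Figure D4:**
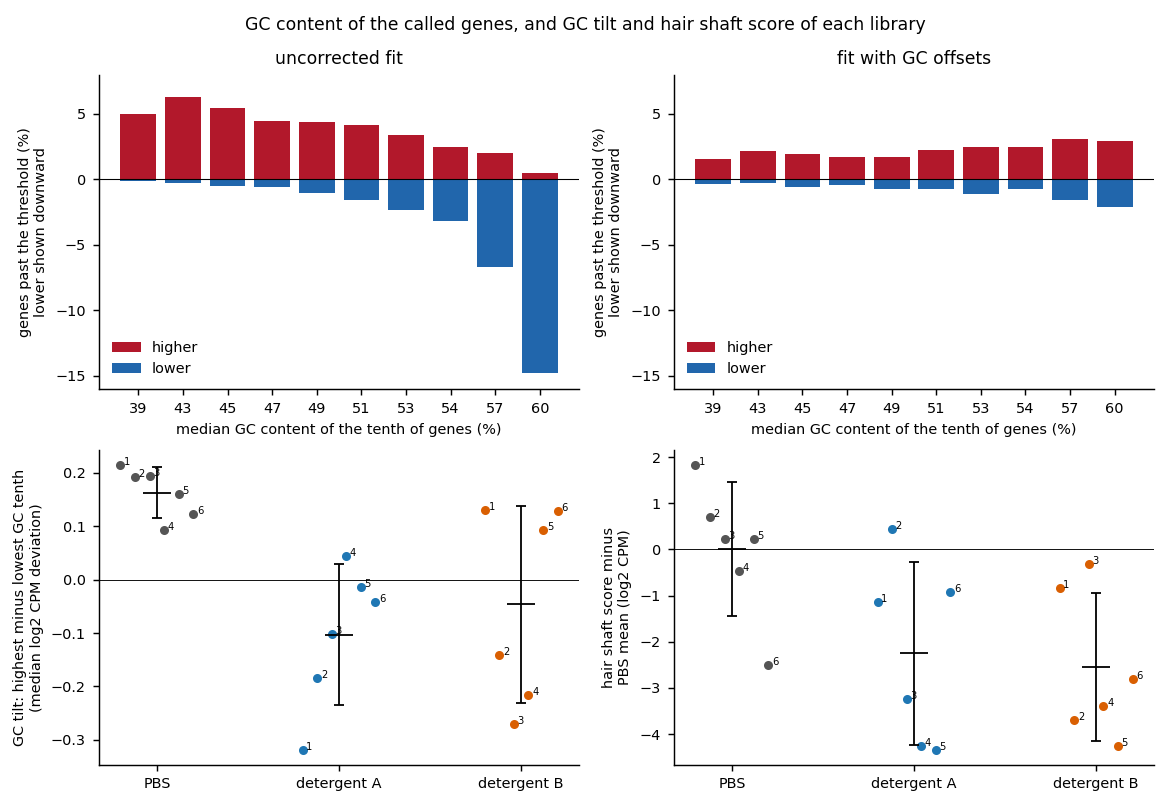
Top, share of genes past the threshold in 10 groups of genes ordered by GC content, higher upward and lower downward, without (left) and with (right) GC offsets; bottom, GC tilt and hair shaft score of each of the 18 libraries (numbers are replicates, bars mean ± SD, 6 libraries a group). In the uncorrected fit 14.8% of genes in the highest-GC group were lower, and with offsets 2.14% were.

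The detergents could be set against each other in the same fit, in a contrast that uses no PBS library. No gene differed between detergent B and detergent A at an adjusted p under 0.05 by edgeR (0%; 550 genes, 3.27%, at an unadjusted p under 0.05; smallest adjusted p 0.9887). Among the 1164 genes of the pooled response 39 (3.35%) had an unadjusted p under 0.05, near that background. A p that misses the threshold does not show equal action, so intervals are given too. The 95% interval of the difference lay within 2-fold for 1055 of these genes and within 1.5-fold for 866. The spread in this same fit entered both the call and the interval, so calling favours genes with narrow intervals. The share over all genes was not counted, and these counts do not show equal action either. The sign of the difference was not evenly spread. The value with detergent B was above that with detergent A in 453 of the 640 genes that rose (70.8%) and below it in 307 of the 524 that fell (58.6%), against 49.9% above among all genes; the median differences were log2 0.06 and -0.03, against a median distance of 0.29 from a gene's difference to the end of its interval.

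Single genes show how wide these intervals were, beginning with 3 taken from the named genes of smallest p. For Zfp219 the fold was 0.666 with detergent A and 0.656 with detergent B, and the log2 difference was -0.02 (95% interval -0.22 to 0.18). For Twf1 the folds were 1.63 and 1.77 (difference 0.12, interval -0.15 to 0.39). For Cpeb2, which encodes a regulator of mRNA translation, they were 1.51 and 1.46 (difference -0.06, interval -0.28 to 0.16). Wider intervals were found for the genes of largest fold. Pla2g4d had folds of 9.32 and 8.07, with an interval of -1.57 to 1.15 for the log2 difference. Of the 161 named genes, most of them chosen by their pooled values, 11 had an interval away from 0 before adjustment. Over all genes tested 3.27% had an unadjusted p under 0.05 by edgeR in this contrast. Among them were Il1f6, with folds of 1.75 and 3.06 (difference 0.81, interval 0.34 to 1.27), Chil1, with 1.32 and 2.44 (0.89, interval 0.38 to 1.40), and Stfa3, with 2.76 and 5.10 (0.88, interval 0.23 to 1.54). Hic1, a transcriptional repressor gene, fell with folds of 0.426 and 0.642 (0.59, interval 0.10 to 1.08). None of the 11 passed after adjustment over all genes by edgeR.

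**Figure D5:**
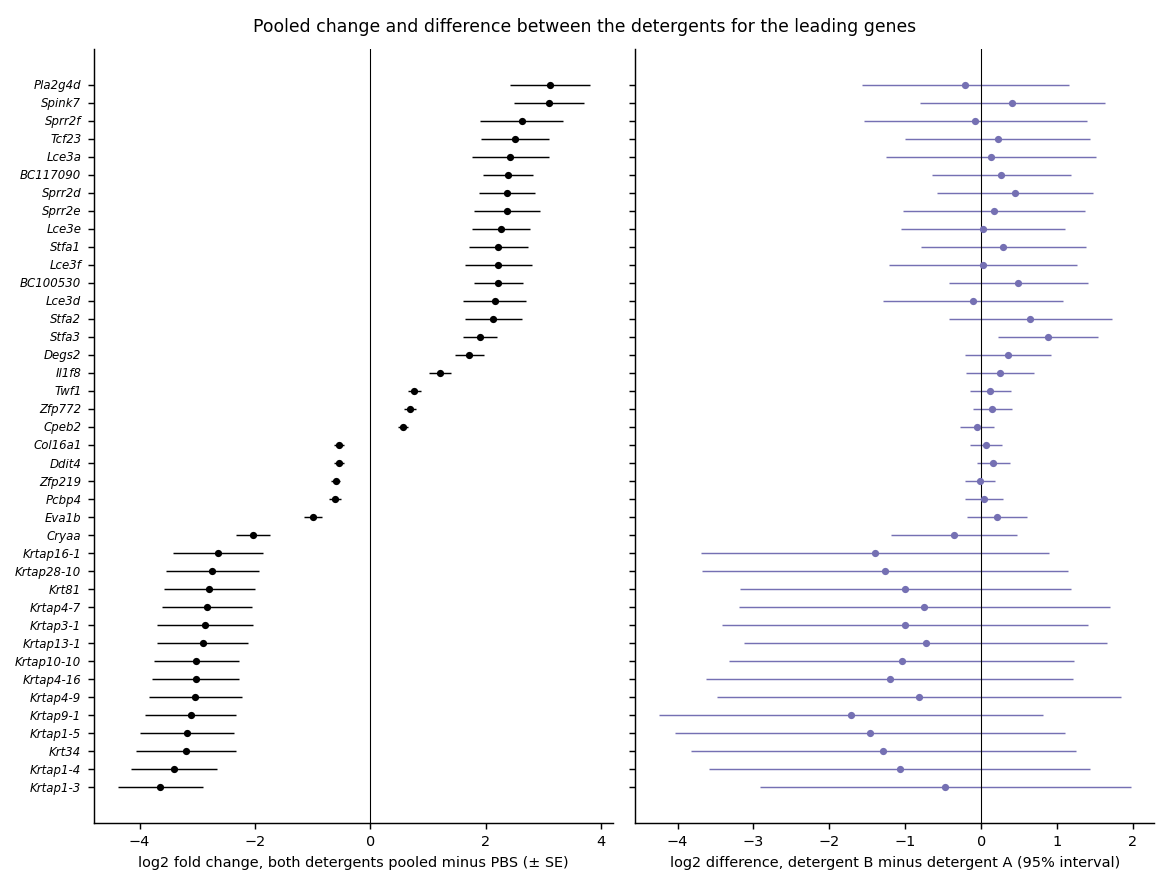
Left, log2 fold change of the pooled detergents against PBS (± SE); right, log2 difference of detergent B minus detergent A with its 95% interval, for the named genes with the largest changes or the smallest p-values (18 libraries). Of the genes drawn, Stfa3 is the one whose interval on the right lies away from 0, before adjustment.

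Counts of the lists, given here as calls in either direction, depended on single libraries as well. When PBS replicate 2 was left out, calls came to 5 for the cornified envelope, 2 for ceramide and barrier lipids, 4 for proteases and inhibitors, 2 for the IL-1 family, 1 for the small proline-rich genes, 0 for the late cornified envelope, 1 for the TGF-beta and BMP list and 1 for the Hox list, each the lowest of the 18 fits with a library left out. The late cornified envelope also had 0 when PBS replicate 3 or 5 was left out. Leaving out PBS replicate 6 gave the highest for ceramide and barrier lipids (34, of which 32 rose and 2 fell). It also did for proteases and inhibitors (24, of which 23 rose and 1 fell) and the late cornified envelope (12). PBS replicate 6 tied with detergent A replicate 6 for the IL-1 family (11). Leaving out detergent A replicate 2 gave the highest for the cornified envelope (24). The highest for the small proline-rich genes (12) came without that library, detergent A replicate 6 or detergent B replicate 3. The highest for the Hox list (12) came without detergent A replicate 6. For the TGF-beta and BMP list the highest was 8. Other lists went to 0: glycolysis and hypoxia without PBS replicate 1, 2 or 3, membrane traffic without PBS replicate 2, antimicrobial genes without PBS replicate 2 or 3, cholesterol synthesis and phospholipases without PBS replicate 2, 3 or 5, and tight junction without PBS replicate 1, 2, 3 or 5. The NRF2 and the Hedgehog and WNT lists went to 1 without PBS replicate 2, and collagen and matrix to 1 without PBS replicate 1, 2, 3 or 5. The stefin A cluster had 4 calls without PBS replicate 2, 3 or 5 and 6 without any other library. Of 141 named genes that passed, 35 passed with each of the 18 libraries left out in turn, among them Degs2, Twf1, Ivl, Casp14, Il1f8, Il1f6, Klk9, Stfa3, Zfp219, Cryaa, Col16a1 and Bmp4.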

How the data were processed

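RNA sequencing of skin was analysed from the deposited counts per gene, whole numbers whose totals of 17312623 to 29599018 per library show no scaling. Alignment by STAR to GRCm38.p5 and counting by featureCounts are named in the authors' notes on processing, per the labels; the sources used here do not give versions, strand setting or treatment of multi-mapping reads. Symbols were matched to GENCODE M21 for 41519 of 41605 gene IDs.

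Counts were filtered with edgeR's default filter, scaled by TMM and fitted in edgeR 4.0.16 (R 4.3.3) with 3 groups over 18 libraries, 15 residual degrees of freedom and a robust quasi-likelihood test. The pooled contrast was the mean of both detergents minus PBS. The standard error was the log2 fold change over the square root of F. Scores used a prior count of 2. Alternatives were DESeq2 1.42.0, limma 3.58.1 voom with quality weights, other size factors and filters, 2 groups, a replicate block, tissue scores as covariates, GC offsets in 20 bins and each library left out; the covariate in DESeq2 and limma was added after seeing the data. The code was tested on simulated counts of 16836 genes, 200 of them changed. There edgeR called 151 genes, 7 of them falsely, and DESeq2 called 184, 21 of them falsely. No pair of libraries agreed within sampling noise (chi-square per gene at least 9.53).

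Named genes were the 14 largest changes and 6 smallest p-values in each direction (mean of at least 1 CPM for the former, 10 of 12 treated libraries on the called side, predicted genes, Rik clones, pseudogenes and antisense genes passed over), up to 4 called genes per list, and a fixed panel; other genes named were chosen after their values were seen. The samples pooled and the gene lists were chosen with earlier results of these data known. Some lists share genes. A few genes of the lists are not reported here by name.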

Additional observations from a re-analysis of the deposited data

Results flagged for a closer look

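Among the 207 groups of 6 libraries checked for the named genes, 8 held a library that stood apart from the other 5 of its group (3.86%), where chance gives about 1 in 20. Detergent B replicate 3 was that library in 7 of the 8. It was low for Zfp772 (35.3 CPM against 43.0 to 45.6 in the others), BC100530 (348 CPM against 754 to 1041), Stfa1 (36.5 CPM against 109 to 209), Krt16 (527 CPM against 1720 to 3222) and Krt14 (3944 CPM against 6767 to 9235). It was high for Krtap10-10 (0.789 CPM against 0 to 0.108) and Cldn1 (392 CPM against 333 to 351). The last was Ocln in PBS replicate 6, at 39.2 CPM against 29.2 to 32.5. Without detergent B replicate 3 the pooled comparison called 843 genes higher and 758 lower.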

How the results depend on the processing

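The counts of genes that rose and fell, 640 and 524, came to 1118 and 877 with DESeq2, 3064 and 3273 with limma voom, 394 and 1301 on library totals without TMM (23.2% and 76.8% of calls, against 55% and 45%; the median of all genes was then -0.12), 389 and 337 with no filter, 372 and 148 with GC offsets, 0 and 0 with the hair shaft score as covariate (59 and 135 in DESeq2, 45 and 215 in limma, both added after seeing the data), and 457 and 343 with the skeletal muscle score. Genes called over the lists, 195, came to 318, 713, 129 and 0 with DESeq2, limma, GC offsets and the hair score, and named genes called, 141, to 0 with the hair score. Non-overlapping genes came to 138 without TMM. With a library left out the ranges were 54 to 1446 higher, 39 to 1149 lower, 36 to 146 named, 29 to 346 over the lists, 74 to 449 without overlap, and -2.88 to -2.02 for the hair score. The cause of these shifts was not tested. Signs turned for Ocln (-0.0296), Cldn1 (-0.0652), Lor (-0.00762) and Tslp (-0.0320) without TMM, Cldn1 (-0.00688) with GC offsets, and, with the hair score, Krtap4-9 (0.27), Krtap4-7 (0.22), Krtap3-1 (0.16), Krtap28-10 (0.13), Krtap16-1 (0.13), Krt5 (-0.00889), Col3a1 (0.11), Lor (-0.33) and Tslp (-0.37). Tslp also turned without PBS replicate 2, 3 or 4, detergent A replicate 3 or detergent B replicate 5, with a range of -0.0391 to 0.509 over the 18 libraries left out. None of these genes but the Krtap ones passed the threshold. Krtap4-7, Krtap3-1 and Krtap16-1 are part of the hair score itself, so their turned signs in that fit are no separate result. With a replicate block 478 genes rose and 410 fell, 144 genes passed over the lists and 100 named genes passed; deviations of same-numbered libraries had correlations of -0.35 to 0.55 (median 0.02, 8 of 18 pairs over 0.1), so the numbers do not show a pairing. Size factors by RLE, 2 groups, a non-robust fit and a stricter filter kept the counts of genes within 1.5 times.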

Other observations

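Other genes of terminal keratinocyte differentiation moved with the pooled response; they were chosen after their values were seen and are given as values. The nucleases Dnase1l2 and Trex2, which break down DNA in cornifying cells, rose from 94.7 ± 18.6 to 179 ± 43.6 CPM and from 102 ± 19.3 to 232 ± 77.6 CPM (SD, n = 6 and 12), with log2 fold changes of 0.91 ± 0.16 and 1.18 ± 0.22 (SE). Blmh, a peptidase that breaks filaggrin down to amino acids, rose from 313 ± 62.8 to 594 ± 165 CPM. Lpo, a lactoperoxidase, rose from 8.06 ± 3.25 to 35.3 ± 18.5 CPM. Their adjusted p-values by edgeR lay between 0.0096 and 0.0109, and all 12 treated libraries lay above the PBS mean of log2 CPM for Dnase1l2, Trex2 and Blmh, and 11 for Lpo.

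Of 355 zinc finger genes named Zfp, 25 fell (7.04%) and 3 rose (0.845%), against 3.11% and 3.8% of all genes tested. The median GC content of all 355 was 44.5%, against 49.7% for all genes tested. That of the 25 that fell was not computed. The inner root sheath and melanocyte lists mark growing hair follicles. Their median log2 fold changes were -1.81 and -0.90, with no gene past the threshold by edgeR or DESeq2 among 12 and 13. At an unadjusted p under 0.05 by edgeR, 4 and 2 of them were lower and none higher, against 4365 of 16836 over all genes tested. The summed levels of these lists ran from 448 to 8920 CPM and 117 to 692 CPM in PBS. In treated libraries they ran from 164 to 6037 CPM and 98.5 to 706 CPM.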
